A study of Homo sapiens with 6 samples.

Results

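Expression of 5 genes of the p53 response and of growth arrest was read by 6 probes of an Illumina bead array: CDKN1A (ILMN_1784602 and ILMN_1787212), GDF15 (ILMN_2188862), BTG2 (ILMN_1770085), GADD45A (ILMN_2052208) and SESN2 (ILMN_1751598). They were chosen by probe identifier, and are 6 of the 24526 probes in the deposited table. The platform annotation names 16922 genes for 21834 of these probes. It pairs 5 of the 6 probes with these genes, and the pairing of ILMN_1770085 with BTG2 comes from the choice of probes itself. The samples were OCM1A cells, a human line labelled as uveal melanoma, separated by flow cytometry with an MDR1 shift assay into ABCB1-positive (ABCB1pos) and ABCB1-negative (ABCB1neg) fractions, with 3 arrays each. ABCB1, or P-glycoprotein, sits in the cell membrane and pumps a wide range of drugs out of the cell. The labels name no treatment other than the assay, all arrays come from 1 cell line grown in one medium, and the series' design text attributes them to 3 independent shift assays. The replicate numbers 1 to 3 are taken here as these assays, which the labels do not state outright.

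The transcription factor p53 is stabilised by DNA damage and other stresses and raises the transcription of genes that stop the cell cycle, repair DNA or start apoptosis. CDKN1A encodes p21, which binds and inhibits cyclin-dependent kinases and thereby blocks entry into S phase. GDF15 encodes a secreted cytokine of the TGF-beta superfamily, BTG2 an antiproliferative cofactor of mRNA deadenylation, GADD45A a small stress protein with roles in growth arrest and DNA repair, and SESN2 a sestrin that restrains mTORC1 under amino acid shortage. GDF15 and SESN2 are also targets of ATF4, the transcription factor of the integrated stress response, so the 5 genes do not read p53 alone.

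The arrays were similar in the number of probes detected, which was 12876 to 13183 in ABCB1pos and 12846 to 13136 in ABCB1neg arrays at a detection p under 0.05. The gene used for the sort followed its labels. The ABCB1 probe ILMN_2094875 had log2 normalised signals of 8.79, 9.39 and 8.19 in ABCB1pos replicates 1 to 3 and of 7.25, 7.24 and 7.18 in ABCB1neg replicates 1 to 3. The fractions differed by 1.57 ± 0.20 (log2, SE, limma adjusted p = 0.00204). The melanocyte genes PMEL, MLANA, TYR and SOX10 were detected on all 6 arrays. Of 7 tested probes for melanocyte genes 1 passed between the fractions, S100A1, at 0.90 (limma adjusted p = 0.0439, and 0.192 without the block), and its part in the results below was not tested. Of the markers of other cell types, PECAM1 (endothelial cells) and EPCAM (epithelial cells) were detected on all 6 arrays, with log2 normalised signals of 6.98, 7.12 and 7.03 for PECAM1 in ABCB1pos and 6.93, 6.65 and 6.90 in ABCB1neg replicates 1 to 3. Those of EPCAM were 7.15, 7.01 and 7.14 in ABCB1pos and 6.96, 7.13 and 6.99 in ABCB1neg replicates 1 to 3. Before scaling, signals were 24.91 to 63.43 for PECAM1 and 46.15 to 73.98 for EPCAM. The lowest detected signals on the arrays were 23.36 to 34.97, so both markers lay close to background. Neither passed between the fractions, with differences of 0.21 (limma adjusted p = 0.398) and 0.07 (0.783), and their part in the results was not tested. None of the 3 probes of PTPRC, a leukocyte marker, was detected on any array.

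Between the fractions, 1 of the 5 testable probes passed the test. BTG2 was higher in ABCB1pos cells, by 1.33-fold. GDF15 and CDKN1A had differences in opposite directions, 1.28 times higher and 1.24 times lower on average in ABCB1pos cells, and neither passed at an adjusted p under 0.05. GADD45A and SESN2 differed less. The sixth probe, the dim CDKN1A probe ILMN_1787212, was detected on 1 of 3 ABCB1pos and 1 of 3 ABCB1neg arrays and did not pass the filter on dim probes, which required detection on at least 3 arrays. Across all 13186 probes that passed it, 2682 (20.3%) differed in limma with the replicate number as a block and Benjamini-Hochberg adjustment, 1469 higher (11.1%) and 1213 lower (9.2%) in ABCB1pos cells. One called probe of 5 is a share near that background. The 3 pairs differed in 1 direction for 4 of the 5 probes, and for 55.7% of all tested probes. In RNA from sorted bulk cells, a change in every cell and a change in the share of cells that express a gene cannot be told apart. In the authors' value table, where each array is scaled to one mean, the split was 982 higher and 1522 lower, and the median of all log2 differences was -0.15, against -0.02 after quantile normalisation. Without the block, 679 probes (5.15%) differed and 0 of the 5 in limma, with BTG2 at an adjusted p of 0.186. At an unadjusted limma p under 0.05 there were 3 of the 5 with the block (BTG2, GDF15 and CDKN1A) and 1 without it (BTG2). With the block such values were common among all tested probes: CDKN1A, at an unadjusted p of 0.0325, ranked only 4055 of 13186 by p.

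BTG2 had log2 normalised signals of 7.27, 7.25 and 7.62 in ABCB1pos replicates 1 to 3 and of 6.86, 6.86 and 7.18 in ABCB1neg replicates 1 to 3. After quantile normalisation every ABCB1pos array lay above every ABCB1neg array, a lack of overlap that 27.2% of the tested probes had. In the authors' value table the signals were 76.3, 76.7 and 116 in ABCB1pos and 44.8, 47.1 and 81.6 in ABCB1neg arrays. There the fractions overlapped, with ABCB1neg replicate 3 above ABCB1pos replicates 1 and 2, and the same held before scaling. The 3 pairs differed by 0.42, 0.39 and 0.44 on the log2 scale, a narrow spread, and their mean was 0.41 ± 0.11 (SE, limma adjusted p = 0.0306, 95% interval 0.17 to 0.66). BTG2 was detected on all 6 arrays, but close to the floor: the lowest detected signals on these arrays lay between 23.4 and 34.97, on the scale before any scaling between arrays. On that scale BTG2 averaged 86.1 ± 20.7 in ABCB1pos and 60.6 ± 33.6 in ABCB1neg arrays (SD, n = 3 each). The size of the difference therefore depended on the background correction, and was 0.69 with neqc and 0.86 with none. The call was lost when any pair was left out, with limma adjusted p values of 0.198 without replicate 1, 0.0588 without replicate 2 and 0.0536 without replicate 3, while the difference stayed between 0.40 and 0.43.

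CDKN1A, read by ILMN_1784602, had log2 normalised signals of 10.95, 10.75 and 12.48 in ABCB1pos replicates 1 to 3 and of 11.28, 11.25 and 12.59 in ABCB1neg replicates 1 to 3. The ABCB1pos array was the lower one in 3 of 3 pairs, but the groups overlapped widely because both arrays of replicate 3 lay far above the rest. The mean difference was -0.31 ± 0.12 (SE, limma adjusted p = 0.106, 95% interval -0.59 to -0.03), with pair differences of -0.33, -0.50 and -0.11. In the authors' value table the signals were 1937, 1680.1 and 5765 in ABCB1pos and 2469, 2451 and 6284 in ABCB1neg arrays. The other CDKN1A probe, ILMN_1787212, had signals there of 18.1, 9.04 and 26.8 in ABCB1pos and of 15.7, 18.5 and 34.0 in ABCB1neg arrays, near the background throughout. Its pairs did not share a direction, with log2 differences of 0.08, -0.13 and -0.05.

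GDF15 had log2 normalised signals of 9.52, 8.39 and 10.91 in ABCB1pos replicates 1 to 3 and of 9.22, 7.87 and 10.67 in ABCB1neg replicates 1 to 3. The ABCB1pos array was the higher one in 3 of 3 pairs, yet the fractions overlapped, because the level changed far more with the replicate number than within a pair. The mean difference was 0.36 ± 0.11 (SE, limma adjusted p = 0.0618, 95% interval 0.09 to 0.62), from pairs of 0.31, 0.52 and 0.24. In the authors' value table the third pair was nearly level. Its signals were 661, 263 and 1743 in ABCB1pos and 535, 172 and 1718 in ABCB1neg arrays.

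GADD45A had log2 normalised signals of 11.75, 12.17 and 12.29 in ABCB1pos replicates 1 to 3 and of 11.62, 11.77 and 12.41 in ABCB1neg replicates 1 to 3. It was the higher in ABCB1pos cells in 2 of 3 pairs and the lower in the third, with a mean difference of 0.14 ± 0.13 (SE, limma adjusted p = 0.494, 95% interval -0.16 to 0.44). SESN2 had log2 normalised signals of 6.65, 6.68 and 7.18 in ABCB1pos replicates 1 to 3 and of 6.60, 6.43 and 6.99 in ABCB1neg replicates 1 to 3. It was detected on 3 of 3 ABCB1pos but on 1 of 3 ABCB1neg arrays, so its level in ABCB1neg replicates 1 and 2 is only a bound. The ABCB1pos arrays of replicates 1 and 2 were also at the floor. Their detection p was 0.0497 each, just under the cut-off of 0.05, against 0.0617 and 0.123 in ABCB1neg. The mean difference was 0.17 ± 0.11 (SE, limma adjusted p = 0.319, 95% interval -0.09 to 0.42). For both genes the interval leaves room for a change as large as that of BTG2. An exact sign-flip permutation test over 3 pairs cannot give a two-sided p under 0.25, and it gave 0.25 for CDKN1A (ILMN_1784602), GDF15, BTG2 and SESN2 alike.

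**Figure D1:**
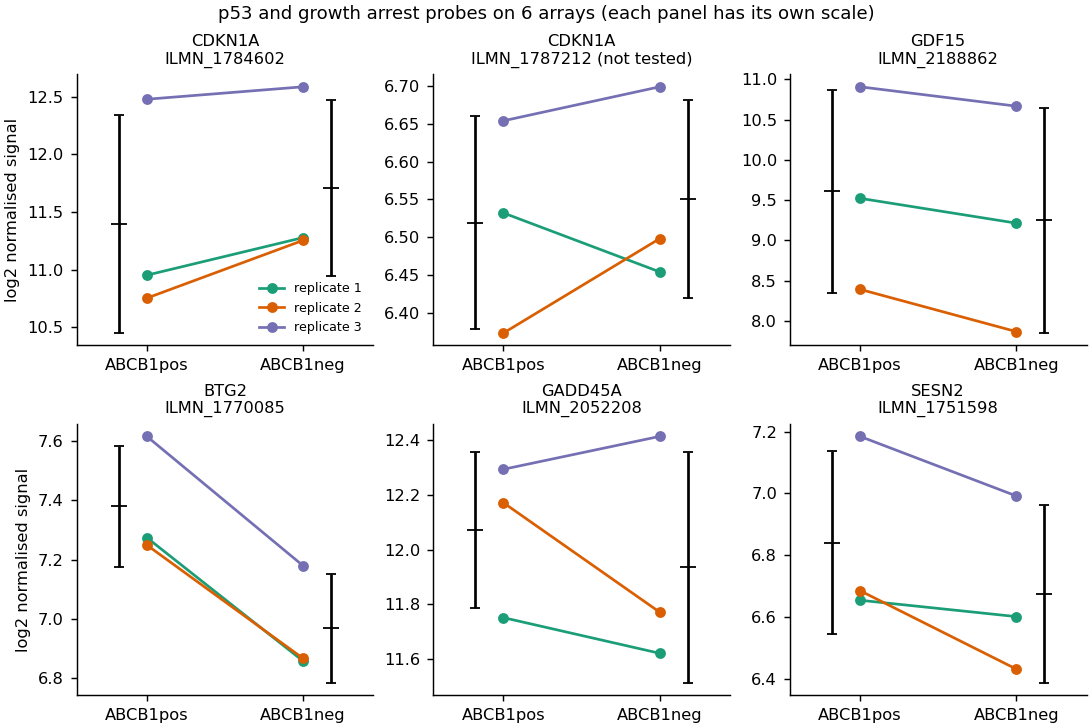
Log2 normalised signal of the 6 probes on the ABCB1pos (left) and ABCB1neg (right) arrays, 1 panel a probe with its own scale; lines join arrays of the same replicate number, and black bars give the mean and SD of each fraction (n = 3). The purple line of replicate 3 is the highest in every panel, and only the BTG2 panel has all ABCB1pos points above all ABCB1neg points.

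**Figure D2:**
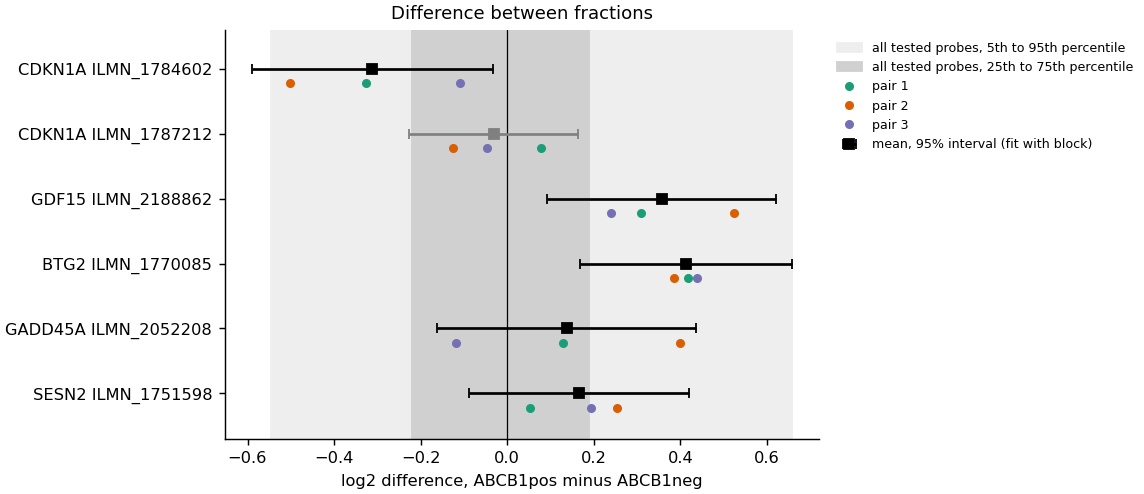
Log2 difference, ABCB1pos minus ABCB1neg, for the 6 probes, with squares and bars for the mean and its 95% interval in the fit with the block and dots for the 3 pairs; the grey bands give the range of all tested probes, and the grey square is the probe that was not tested. The dots of BTG2 lie together between 0.39 and 0.44, while those of GADD45A fall on both sides of 0.

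The larger differences in these genes ran between the replicate numbers. This was seen in the values first and then tested with limma's F test of the 2 terms for the replicate number, in the same fit across all probes. The F test covers any difference among the 3 numbers. Each number is taken as 1 shift assay read on 2 arrays. The error of the F test is the spread left after fraction and number. Its p-values therefore treat the 2 fractions of an assay as replicates and do not measure a spread between repeated assays. Both arrays of replicate 3 lay above all 4 other arrays for CDKN1A (both probes), GDF15, GADD45A and SESN2. Among all tested probes 7.6% showed this. For BTG2 the ABCB1neg array of replicate 3 lay below the ABCB1pos arrays of replicates 1 and 2. GDF15 was higher in replicate 3 than in the mean of replicates 1 and 2 by 2.04 on the log2 scale, or 4.1-fold (limma F test adjusted p = 0.00318). CDKN1A (ILMN_1784602) was higher by 1.47, or 2.77-fold (limma F test adjusted p = 0.013). An adjusted p under 0.05 was reached by 9.56% of all tested probes, and by 1.79% together with both replicate 3 arrays on top. Among the tested probes, whose median difference was -0.005, GDF15 stood at percentile 99.99 and CDKN1A at percentile 99.93.

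The step was present in each fraction. Both fractions of replicate 3 are taken to come from 1 shift assay, so they are not independent observations of the step. For GDF15 the step was 1.95 in ABCB1pos and 2.12 in ABCB1neg arrays, and for CDKN1A 1.63 in ABCB1pos and 1.32 in ABCB1neg arrays. GDF15 was also 1.24 higher in replicate 1 than in replicate 2 over both fractions, while CDKN1A differed between those numbers by 0.11. GADD45A was higher in replicate 3 by 0.52 (limma F test adjusted p = 0.0679), SESN2 by 0.50 (0.0648) and BTG2 by 0.34 (0.163), and these did not pass. SESN2 did pass with neqc, at 0.83 and a limma F test adjusted p of 0.0255. Of the variation of GDF15 over the 6 arrays, 97.1% lay between replicate numbers and 2.64% between fractions. For CDKN1A the shares were 94.03% and 4.72%, but for BTG2 37.05% and 62.8%. The mean signals of the arrays before scaling were 894, 668 and 722 in ABCB1pos and 744, 670.3 and 958 in ABCB1neg replicates 1 to 3. What set replicate 3 apart in culture or sorting is not given in the labels, and its part in the result was not tested.

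**Figure D3:**
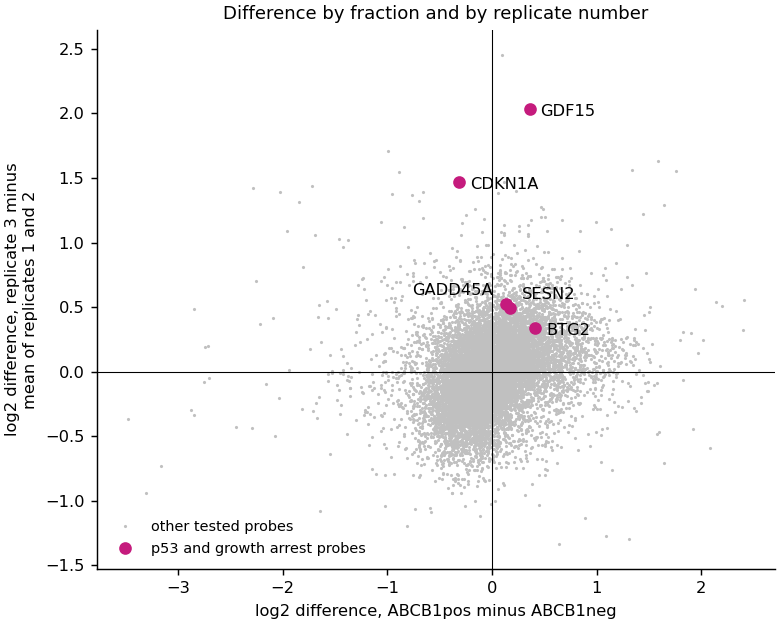
Each tested probe by its log2 difference ABCB1pos minus ABCB1neg (x axis) and its log2 difference of replicate 3 minus the mean of replicates 1 and 2 (y axis), with the 5 tested probes of these genes in pink. GDF15 at 2.04 and CDKN1A at 1.47 lie at the upper edge of all probes on the y axis. On the x axis GDF15 lies at 0.36 and CDKN1A at -0.31. Both are outside the 25th to 75th percentile range of all tested probes (-0.22 to 0.19). Both are inside the 5th to 95th percentile range (-0.55 to 0.66).

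Over the 6 arrays the 5 tested probes varied together to different degrees. Pearson's r was 0.92 for GDF15 with SESN2, 0.83 for GDF15 with CDKN1A, 0.82 for CDKN1A with SESN2 and 0.42 for CDKN1A with BTG2. These describe 6 arrays in 3 pairs, each taken by its number to share a shift assay. Of 11962 other tested probes with a gene name, the 2 whose profile was most like the mean profile of the 5 were TRIM39 (ILMN_1736562, r = 0.9925 over 6 arrays), an E3 ubiquitin ligase, and TSPAN7 (ILMN_2120695, r = 0.9905), a tetraspanin. TSPAN7 had log2 normalised signals of 6.78, 6.71 and 7.84 in ABCB1pos and of 6.75, 6.59 and 7.74 in ABCB1neg replicates 1 to 3, again with both replicate 3 arrays on top. In replicates 1 and 2 it was near the floor, with signals before scaling of 39.16 and 26 in ABCB1pos and 34.3 and 21.01 in ABCB1neg.

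Promoter sequence is shown for the genes with the largest step between replicates, CDKN1A and GDF15, and for BTG2, which passed between the fractions. The windows are the 250 bases before the annotated start from RefSeq on GRCh38.p14, plus strand, at chr6:36678464-36678713, chr19:18385908-18386157 and chr1:203305269-203305518. Capitals mark GC boxes (GGGCGG on either strand, the motif of SP1) and, in GDF15, a TATA box (TATAAA).
CDKN1A: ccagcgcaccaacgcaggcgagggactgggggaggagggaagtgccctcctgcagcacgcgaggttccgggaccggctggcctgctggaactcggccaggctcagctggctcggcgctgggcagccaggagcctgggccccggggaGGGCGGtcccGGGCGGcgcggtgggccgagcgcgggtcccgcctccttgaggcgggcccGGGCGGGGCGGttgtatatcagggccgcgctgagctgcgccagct
GDF15: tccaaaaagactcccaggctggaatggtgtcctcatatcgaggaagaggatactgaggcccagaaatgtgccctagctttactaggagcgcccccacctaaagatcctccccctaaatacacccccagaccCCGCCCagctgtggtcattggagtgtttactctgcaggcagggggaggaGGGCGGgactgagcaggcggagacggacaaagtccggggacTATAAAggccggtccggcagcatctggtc
BTG2: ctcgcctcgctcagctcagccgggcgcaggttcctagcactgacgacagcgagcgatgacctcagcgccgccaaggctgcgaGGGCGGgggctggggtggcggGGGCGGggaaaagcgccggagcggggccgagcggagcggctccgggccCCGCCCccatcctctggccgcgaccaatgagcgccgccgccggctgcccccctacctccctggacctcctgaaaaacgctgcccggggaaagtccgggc
CDKN1A held 4 GC boxes, of which the last pair share a base, BTG2 held 3 and GDF15 held 2. A window was at hand for 4 of the 5 genes, and all 4 held a GC box, as did 44.95% of 35116 promoter windows of 300 bases, which run 50 bases past the start. The TATA box of GDF15 begins 29 bases before the start, and 11.5% of the windows hold that motif. The p53 half-site consensus occurs in 6.63% of the windows, the CRE TGACGTCA in 1.85% and the AP-1 motif TGANTCA in 7.71%, each searched on both strands, and none of the 4 windows held a full match to any of these. The distal p53 sites known for CDKN1A lie outside this window.

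Other genes of the p53 pathway were called in both directions between the fractions. Of the 26 genes listed, 24 had a probe with a gene name and 17 had one that was tested, with 19 tested probes. One was higher and 1 lower in ABCB1pos cells, where 11.1% of all tested probes were called higher and 9.2% lower, and the median log2 difference was 0.02. ZMAT3, an RNA-binding p53 target, was higher by 0.61 ± 0.16 (SE, limma adjusted p = 0.0314). Its log2 normalised signals were 12.04, 12.09 and 12.63 in ABCB1pos and 11.44, 11.89 and 11.60 in ABCB1neg replicates 1 to 3. PPM1D, the phosphatase that turns the p53 response off, was lower, at -0.61 ± 0.15 (SE, limma adjusted p = 0.0261). Its signals were 8.68, 9.07 and 8.54 in ABCB1pos and 9.28, 9.33 and 9.52 in ABCB1neg arrays. The fractions did not overlap for ZMAT3 or for PPM1D, as was the case for 27.2% of all tested probes. PMAIP1, which encodes the apoptosis inducer NOXA, differed by 0.40 (limma adjusted p = 0.0531), and MDM4, an inhibitor of p53, by -0.36 (0.0807). MDM2, the ubiquitin ligase that degrades p53 and is itself a target, was singled out after its value was seen, and differed by -0.33 (0.107). The BAX probe ILMN_1683300, with a slightly smaller unadjusted p than MDM2, differed in the other direction, by 0.29 (0.107). Without the block 0 of the 19 passed in limma, beside 5.15% of all tested probes. An unadjusted limma p under 0.05 was reached by 6 with the block and 3 without it. With the block such values were common among all tested probes, where CDKN1A (ILMN_1784602), at 0.0325, ranked 4055 of 13186.

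Across the p53 list the median difference of replicate 3 from replicates 1 and 2 was -0.002, beside -0.005 for all tested probes, and 4 of 19 probes passed the F test, beside 9.56% of all tested probes. AEN, a p53-induced nuclease, was 0.80 higher in replicate 3 (limma F test adjusted p = 0.0187) and PHLDA3, an inhibitor of AKT, 0.59 higher (0.0334), both with replicate 3 on top and replicate 2 lowest in each fraction. CCNG1, a cyclin and p53 target, passed with another pattern (0.0296), as did the kinase gene PLK2 (0.0273), since replicate 2 was the highest in each fraction. The log2 normalised signals of CCNG1 were 10.76, 11.69 and 10.56 in ABCB1pos and 11.05, 11.61 and 10.94 in ABCB1neg replicates 1 to 3.

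Among the other CDK inhibitors, 1 of 6 tested probes passed between the fractions, beside 20.3% of all tested probes. It was a CDKN2A probe, ILMN_1744295, which reads the locus of p16 and ARF and was higher in ABCB1pos cells by 0.54 ± 0.13 (SE, limma adjusted p = 0.0265). Without the block its adjusted p was 0.347. The other tested CDKN2A probe differed by 0.27 (0.26). CDKN2D (p19) differed by 0.40 (0.0678), CDKN1B (p27) by 0.21 (0.361) and CDKN1C (p57) by 0.19 (0.399). The list's median was 0.24. The called CDKN2A probe was also 0.75 higher in replicate 3 (limma F test adjusted p = 0.0348). In the BTG, GADD45 and sestrin families 0 of 7 tested probes passed in limma, against the same 20.3%, with a median of -0.12. SESN3, a paralogue of SESN2, came nearest at -0.40 (limma adjusted p = 0.0584, unadjusted p = 0.013), followed by BTG1, a paralogue of BTG2, at -0.23 (0.206), SESN1 at 0.18 (0.507) and TOB1 at -0.17 (0.538). SESN3 was detected on 2 of 3 ABCB1pos arrays, near the floor, with signals before scaling of 24.58, 29.18 and 39.26 in replicates 1 to 3. Its level in ABCB1pos replicate 1 is only a bound.

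The integrated stress response list, which shares GDF15 and SESN2, had 1 higher and 3 lower calls among 12 tested probes of 9 genes, beside 11.1% higher and 9.2% lower over all tested probes, with a median of 0.02. Both probes of ASNS, asparagine synthetase, were lower in ABCB1pos cells, at -0.63 ± 0.11 and -0.60 ± 0.11 (SE, limma adjusted p = 0.00706 and 0.00885). They were the only ones of the list to pass without the block too. DDIT3, which encodes the stress factor CHOP, was higher by 0.51 ± 0.12 (SE, limma adjusted p = 0.024). One of 3 ATF4 probes was lower, at -0.39 ± 0.11 (SE, limma adjusted p = 0.0434). Between replicate numbers, 3 of the 12 passed the F test, beside 9.56% of all tested probes: GDF15, ATF3 at 0.82 higher in replicate 3 (limma F test adjusted p = 0.0403) and another ATF4 probe (0.0225), whose 2 arrays of replicate 2 lay above the rest.

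Among proliferation genes 1 of 12 tested probes passed between the fractions, beside 20.3% of all tested probes, and the median was -0.04. CCNE1, cyclin E1, which drives entry into S phase, was lower in ABCB1pos cells, at -0.40 ± 0.11 (SE, limma adjusted p = 0.0447), and did not pass without the block (0.25). MKI67, the proliferation marker Ki-67, differed by 0.33 (0.0697), cyclin B1 (CCNB1) by -0.33 (0.0756) and the PCNA probe with the smallest p by -0.33 (0.0821). The other tested PCNA probes differed in opposite directions, by -0.20 (limma adjusted p = 0.242) and 0.14 (0.403). Between replicate numbers 1 probe passed, CCND1, cyclin D1 (limma F test adjusted p = 0.0273). Its log2 normalised signals were 13.46, 12.52 and 13.51 in ABCB1pos and 13.64, 12.77 and 13.38 in ABCB1neg replicates 1 to 3, with replicate 2 the lowest in each fraction.

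**Figure D4:**
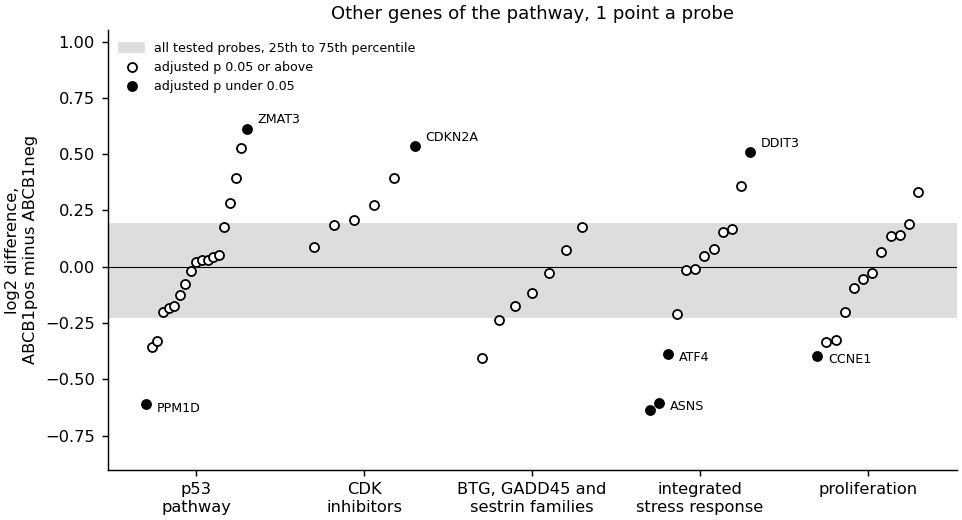
Log2 difference, ABCB1pos minus ABCB1neg, of each tested probe in the 5 further gene lists, ordered by size within a list; filled points have an adjusted p under 0.05 in the fit with the block, and the grey band holds the middle of all tested probes. Filled points lie on both sides of 0 in the p53 and integrated stress response lists, and most points are open.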

How the data were processed

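Total RNA was labelled with biotin and hybridised to 1-colour Illumina arrays, per the labels' protocols. The deposited intensity values are linear, background-subtracted and partly below 0, and the deposited detection p-values stand beside them, per the file headers. The authors' value table holds the same intensities multiplied by 1 constant per array. The scanner software is not given in the sources used here.

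Signals were corrected with normexp (offset 50), log2 transformed, quantile normalised and fitted with limma 3.58.1 in R 4.3.3. Probes with a detection p under 0.05 on at least 3 arrays (13186) were tested with the replicate number as a fixed block, two-sided, and p-values were adjusted by Benjamini-Hochberg across them. A call is an adjusted p under 0.05, and differences are ABCB1pos minus ABCB1neg. The block follows the 3 shift assays of the design text: deviations from the group means correlated with r = 0.48, 0.64 and 0.48 between arrays of equal number. The labels do not state the pairing outright. With the block, p-values for the fractions measure the spread of the difference between fractions across assays of 1 cell line, not the spread of levels between assays. Only 3 arrays per group limit the precision. Of 24526 probes, 21834 have 1 gene symbol in the platform annotation, 0 several and 2692 none, and 21813 matched the reference gene table by gene ID. No slide or scan date was used.

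All 6 probes are described, with up to 4 genes a list (the smallest p values) and the 2 probes of most similar profile. In the gene lists, MDM2, BAX and genes that passed the F test are named beyond that rule. The probes and lists were chosen with earlier results of these data known. The alternatives changed the background correction, scaling, filter, variance prior, array weights, block and arrays.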

Additional observations from a re-analysis of the deposited data

How the results depend on the processing

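Of the 5 tested probes, 1 was called with the block. The count was 0 without the block, 0 with median scaling and 3 with array weights, which added GDF15 (0.33, limma adjusted p = 0.0134) and CDKN1A (-0.33, 0.0159). It was 0 with each replicate number left out. It was also 0 with each array left out, but those fits had no block, and without the block it was 0 on all arrays already. The 10 remaining alternatives gave 1 again. Over all probes the count of 2682 became 1348 with median scaling, 5513 with array weights and 679 without the replicate block. Left-out numbers or arrays gave 20 to 2732: with the block 1333 without replicate 1, 2732 without 2 and 2440 without 3, and without the block 20, 1348 and 321 without ABCB1pos replicates 1 to 3 and 153, 308 and 200 without ABCB1neg replicates 1 to 3. BTG2 kept its direction in 22 of 22 alternatives and was called in 11, with log2 differences of 0.30 to 0.86. GDF15 ranged from -0.33 to 1.07 and CDKN1A (ILMN_1784602) from -0.85 to 0.13. Their signs turned only in fits without the block with 1 array left out: ABCB1pos replicate 3 or ABCB1neg replicate 2 for GDF15, and ABCB1pos replicate 2 or ABCB1neg replicate 3 for CDKN1A. GADD45A and SESN2 each turned sign in 1 such fit, to -0.02 and -0.005. The mean of both CDKN1A probes differed by -0.17 (limma adjusted p = 0.313). The difference between replicate numbers, tested after seeing the data, was called for GDF15 and CDKN1A in 8 of 8 alternatives, with limma F test adjusted p of 5.69e-06 to 0.0255 and 0.000367 to 0.0325. SESN2 joined them in 4. The causes were not tested. Signal near background limits BTG2, SESN2 and ILMN_1787212, and also SESN3, TSPAN7, PECAM1 and EPCAM.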
